A study of Mus musculus with 6 samples.

Results

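Clustered histone genes, the genes whose transcripts supply histone proteins to DNA that is being copied, were described in sorted mouse bone marrow plasma cells. They were taken by symbol, as every gene of the deposited expression table whose name begins with Hist1h, Hist2h, Hist3h or Hist4h. This gave 42 of 13642 genes, comprising 6 genes for the linker histone H1 and, for the core histones, 6 for H2A, 13 for H2B, 8 for H3 and 9 for H4. The GENCODE M21 annotation holds 70 genes under the same naming rule, 67 of them protein coding, and each gene of the deposited table was above 0 in at least 1 library. The gene group was proposed with its old and young values known, so the old and young values below are a description and support no claim about age.

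Core histones form the spool around which DNA is wound, and H1 binds where the DNA enters and leaves it. The clustered genes are known to be transcribed mainly while a cell copies its DNA, and their messenger RNAs end in a stem-loop bound by the protein SLBP instead of a poly(A) tail. A second set of histone genes, the replication-independent variants such as H3f3b, lies outside the clusters and is used by dividing and resting cells alike. Long-lived plasma cells secrete antibody and are known as cells that no longer divide, so clustered histone transcripts are of interest in them as a sign of cells in S phase.

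RNA sequencing covered 3 young and 3 old libraries of C57BL/6J mice carrying no allele or treatment named in the labels. Young animals were female, aged 2 to 3 months, and were obtained from the Jackson Laboratory or from UCLA, while old animals were male, aged 17 to 19 months, from the National Institute on Aging. Age, sex and supplier therefore cannot be told apart. The labels give a marrow sort on high CD138 without B220, IgD, TCRβ, TCRγδ, CD11b or Gr-1, and do not say whether a library came from 1 animal or several, so the spread between libraries may be partly technical. Each library was built from 5 ng of RNA with a strand-marking kit for total RNA, read as paired ends, whose priming does not need a poly(A) tail.

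Values are FPKM, fragments divided by gene length and by the mapped total of the library, as deposited, and are levels per gene length. The libraries had 8934 to 12049 genes above 0. From the smallest steps between low values, 1 fragment in a gene of 500 bases was worth about 0.0709 to 0.0888 FPKM, which corresponds to about 22.5 M to 28.2 M fragments per library. All 9 plasma cell marker genes were above 1 FPKM in every library. Their summed level was 19887 to 23212 FPKM in 5 libraries and 8992 in old replicate 3, which also had the highest summed monocyte, erythroid, T and NK cell and megakaryocyte markers.

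Stem-loops are printed because they mark these transcripts as replication-dependent and because near-identical copies share them. A stem-loop of 16 bases was found in the GENCODE M21 transcript models of 35 of the 42 genes, 24 to 57 bases after the end of the coding sequence. The other 7 are Hist1h1a, Hist1h1b, Hist1h2ak, Hist1h2bc, Hist1h2bn, Hist1h2bp and Hist2h2be, which need not lack a stem-loop. The models of Hist1h2ak and Hist1h2bn have 393 and 381 bases for coding sequences of 390 and 378 bases, too short to hold one. Capitals mark the stem-loop, with 5 bases on each side, in transcript sense, 5′ to 3′.
Hist1h1e: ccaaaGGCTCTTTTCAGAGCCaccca
Hist1h2bk: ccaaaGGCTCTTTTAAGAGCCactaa
Hist1h3b: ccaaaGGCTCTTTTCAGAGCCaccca
Hist1h3e: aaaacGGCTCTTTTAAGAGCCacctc
Hist1h3f: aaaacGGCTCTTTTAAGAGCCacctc
Hist1h4d: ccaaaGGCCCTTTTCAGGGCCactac
On GRCm38 these lie at chr13:23621777-23621802 (minus strand) for Hist1h1e, chr13:22036295-22036320 (plus) for Hist1h2bk and chr13:23752815-23752840 (plus) for Hist1h3b. The Hist1h3e window is at chr13:23561898-23561923 (minus), that of Hist1h3f at chr13:23544927-23544952 (plus) and that of Hist1h4d at chr13:23581945-23581970 (plus). Hist1h3e and Hist1h3f have the same letters throughout the window, and so do Hist1h1e and Hist1h3b, although those encode an H1 and an H3. The stem-loop of Hist1h1e was shared by 18 members of H1, H2A, H2B and H3, that of Hist1h3f by 6 members and that of Hist1h4d by 5 members, all 5 of them H4 genes. The models of 22 members run over 100 bases past the stem-loop, so a fragment counted for these genes need not come from a transcript that ends at it.

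Promoter sequences show how the histone types differ in what lies ahead of the gene. Promoters of 37 members were matched in RefSeq (GRCm38.p6), and the members without an entry are Hist1h2bc, Hist2h2be, Hist1h3f, Hist1h3a and Hist2h4. The 140 bases ahead of the annotated start are printed in gene sense for an H1, an H2B and an H3 gene, with capitals for each match to TATAAA (gene strand) and to CCAAT, ATTTGCAT or AAACACA (either strand).
Hist1h1e: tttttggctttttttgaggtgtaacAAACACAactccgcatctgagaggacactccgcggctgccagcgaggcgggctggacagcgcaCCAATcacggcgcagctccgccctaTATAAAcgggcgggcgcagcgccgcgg
Hist1h2bg: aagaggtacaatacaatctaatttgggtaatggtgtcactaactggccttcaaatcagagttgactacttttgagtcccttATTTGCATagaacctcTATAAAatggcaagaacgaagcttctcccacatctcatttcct
Hist1h3e: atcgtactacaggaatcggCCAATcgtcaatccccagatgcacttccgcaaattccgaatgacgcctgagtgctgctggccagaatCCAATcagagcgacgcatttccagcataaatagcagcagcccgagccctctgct
They lie at chr13:23622559-23622698 (minus strand), chr13:23571260-23571399 (plus) and chr13:23562386-23562525 (minus). Within 250 bases ahead of the start, CCAAT was present in 31 of 37 members (83.8%) and in 37.5% of 27025 promoters in the table, and TATAAA in 15 members (40.5%) and 8.94% of promoters. By type, CCAAT was in 6 of 6 H1, 6 of 6 H2A, 11 of 11 H2B and 5 of 6 H3 promoters, but in 3 of 8 H4 promoters. The octamer ATTTGCAT, a binding sequence of POU-family factors, was present in 5 of 6 H2A and 5 of 11 H2B promoters and in 0 of the H1, H3 and H4 promoters, against 1.81% of all promoters. AAACACA was present in 5 of 6 H1 promoters and in 2 other members, against 7.20% of all promoters. Matches of different motifs were counted separately and may overlap at their ends. Some promoters share their bases, since Hist1h2ae and Hist1h2bg start 175 bases apart on opposite strands and Hist1h2ak and Hist1h2bn 295 bases apart. A match there can be counted for both genes, so these promoters are not separate. These are matches of letters and do not show that a factor binds.

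Histone transcripts were present in every library, through some genes common to all libraries and others that differed between them. Of the 42 genes, 20 were above 0 in every library and 7 were at 10 FPKM or more in every library. Those 7 are the linker genes Hist1h1e, Hist1h1c, Hist1h1d, Hist1h1a and Hist1h1b with the core genes Hist1h2bn and Hist1h4d. At 10 FPKM or more were 27, 14 and 13 genes in young replicates 1 to 3 and 21, 25 and 35 genes in old replicates 1 to 3, so old replicate 3 expressed the most members and young replicate 3 the fewest. Listed at 0 were 7, 11 and 18 members among young replicates 1 to 3, against 11, 6 and 1 among old replicates 1 to 3.

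**Figure D1:**
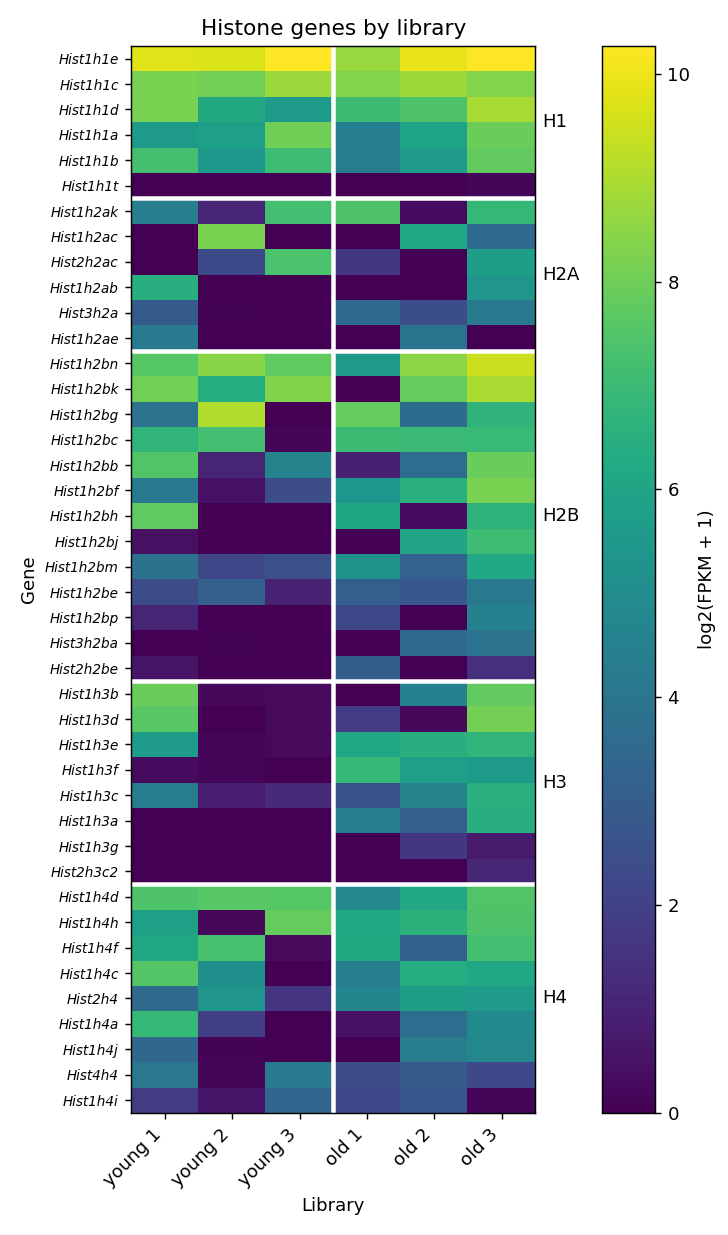
Level of each of the 42 clustered histone genes (rows, grouped by histone type) in each library (columns), as log2(FPKM + 1) in colour. H1 genes other than Hist1h1t are filled in across all 6 libraries, while most core histone genes are bright in some libraries and dark in others, and the H3 block is dark in young replicates 2 and 3.

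Summed over all members, histone transcripts came to 3930, 3117 and 3405 FPKM in young replicates 1 to 3 and 2091, 3231 and 6552 FPKM in old replicates 1 to 3. The lowest and the highest library were both old, so the groups overlapped, at 3484 ± 412 FPKM in young and 3958 ± 2317 FPKM in old libraries (SD, n = 3 each). This was 1.01% to 1.31% of all summed FPKM for young samples, against 0.695%, 1.01% and 2.15% for old replicates 1 to 3. The log2 ratio of the old to the young mean was 0.18 with all libraries and -0.39 without old replicate 3. The 35 genes of the Hist1 cluster on chromosome 13 carried nearly the whole sum, 3224 of 3405 FPKM in young replicate 3 and 6414 of 6552 FPKM in old replicate 3. In bulk samples such as these, a larger share of cells in S phase and more histone RNA per cell cannot be told apart.

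**Figure D2:**
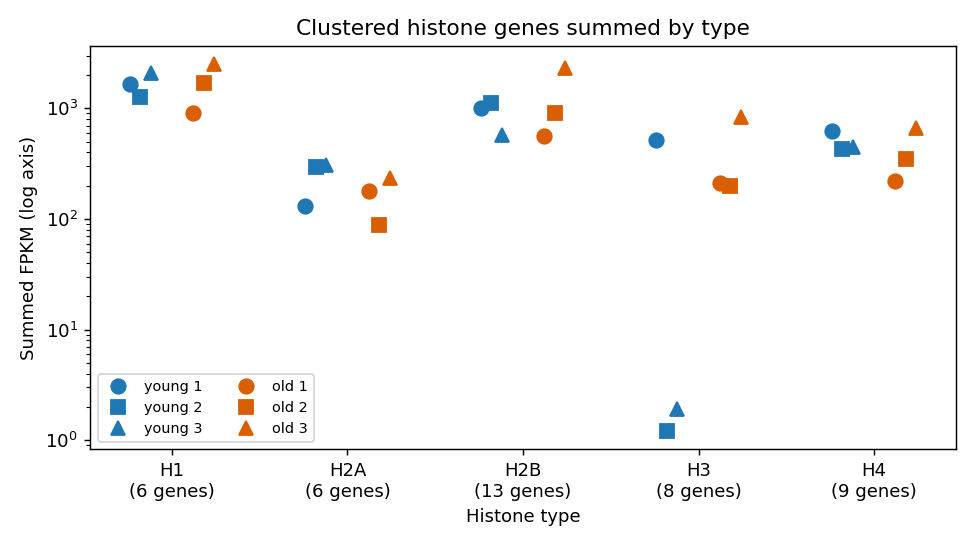
Summed FPKM (log axis) of the genes of each histone type, 1 point per library, young in blue and old in orange. Young and old points overlap for every type, and the H3 sum lies at 1.21 and 1.92 FPKM in young replicates 2 and 3 against 197 FPKM or more in the other libraries.

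Linker histone genes were the largest and the most even part of the histone transcripts. H1 genes summed to 1649, 1269 and 2072 FPKM in young and 909, 1686 and 2509 FPKM in old libraries, or 38.3% to 60.9% of the histone sum. Hist1h1e, on chromosome 13 (23620629 to 23622558, minus strand, GRCm38), led in every library, at 865, 828 and 1206 FPKM in young and 415, 976 and 1232 FPKM in old libraries. Its group means were 966 ± 208 and 874 ± 418 FPKM (SD, n = 3) and its ranges overlapped. In GENCODE M21 the long model of Hist1h2be overlaps Hist1h1e on the same strand, and Hist1h2be itself stayed between 0.980 and 16.8 FPKM.

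Hist1h1c, a linker gene whose human counterpart is also known to give polyadenylated transcripts in resting cells, was the steadiest member of all. Young values were 295, 268 and 418 FPKM, and old values 326, 430 and 327 FPKM. Its within-group SD on the log2(FPKM + 1) scale was 0.29, the lowest of the members tested. Hist1h1d was at 291, 74.96 and 49.2 FPKM in young and 129, 170 and 483 FPKM in old libraries. Hist1h1a was at 47.5, 54.4 and 264 FPKM against 20.4, 60.9 and 245 FPKM, and Hist1h1b was at 151, 43.4 and 136 FPKM against 18.8, 48.6 and 222 FPKM. For all 5 linker genes so far named the old range overlapped the young range. Hist1h1a and Hist1h1b, known for S-phase expression in dividing cells, were both lowest in old replicate 1. Hist1h1t, the testis linker histone, was at 0.114 FPKM in old replicate 3 and at 0 in the other libraries.

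H2A was the least abundant type except in young replicates 2 and 3, where H3 was lower, and its leading gene changed from library to library. The H2A sum was 130, 297 and 308 FPKM in young and 181, 88.6 and 234 FPKM in old libraries. Hist1h2ak was at 19.95, 1.07 and 147 FPKM in young and 168, 0.241 and 115 FPKM in old libraries. Hist1h2ac was listed at 0 in young replicates 1 and 3 and old replicate 1, and was at 292 FPKM in young replicate 2, where it made up 98.3% of the H2A sum. It was at 69.4 and 11.2 FPKM in old replicates 2 and 3. Hist1h2ab led in young replicate 1 with 86.1 FPKM, was at 39.9 FPKM in old replicate 3 and was listed at 0 in the other 4 libraries. Hist2h2ac, from the chromosome 3 cluster, led in young replicate 3 with 161 FPKM. Hist1h2ab, Hist1h2ac and Hist1h2ae encode the same protein, and their coding sequences are 97.4% to 98.2% identical. Summed, the 3 copies were at 104, 292 and 0 FPKM in young and 0, 83.9 and 51.1 FPKM in old libraries, so summing identical copies did not even out the libraries. Hist3h2a was at most 16.7 FPKM and Hist1h2ae at most 17.4 FPKM.

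H2B was the most abundant core type in every library. Its 13 genes encode 9 proteins and summed to 1001, 1123 and 575 FPKM in young and 567, 911 and 2312 FPKM in old libraries. Hist1h2bn was the 1 H2B gene above 10 FPKM throughout, at 186, 349 and 219 FPKM in young and 47.6, 355 and 690.4 FPKM in old libraries. Hist1h2bk was at 267, 80.9 and 323 FPKM in young libraries, was listed at 0 in old replicate 1, and was at 228 and 502 FPKM in old replicates 2 and 3. The other leading copy was Hist1h2bg, at 13.9, 534 and 0 FPKM against 225, 11.5 and 103 FPKM. Hist1h2bg led the H2B genes in old replicate 1, where Hist1h2bk was listed at 0. It also led in young replicate 2, where Hist1h2bk was at 80.9 FPKM.

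Hist1h2bc was at 103 and 146 FPKM in young replicates 1 and 2, at 0.120 FPKM in young replicate 3 and at 129, 127 and 120 FPKM in the old libraries. Its 5 other libraries lay within a narrow range, and young replicate 3 alone fell outside it. Hist1h2bb was at 177, 1.08 and 23.1 FPKM against 0.846, 11.7 and 243 FPKM, and Hist1h2bh was at 217, 0 and 0 FPKM against 66.0, 0.224 and 98.2 FPKM. For Hist1h2bf the groups did not overlap, at 17.8, 0.434 and 4.40 FPKM in young and 41.6, 90.2 and 295 FPKM in old libraries. Its protein is identical to those of Hist1h2bj and Hist1h2bn, and the 3 copies together were at 204, 350 and 223 FPKM in young and 89.2, 508 and 1122 FPKM in old libraries. The sum overlapped between the groups, since old replicate 1 was the lowest of all 6. The remaining H2B genes, Hist1h2bj, Hist1h2bm, Hist1h2be, Hist1h2bp, Hist3h2ba and Hist2h2be, reached at most 136 FPKM.

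The H3 sum varied most between libraries, with a highest value 684 times the lowest against 2.76 to 4.08 times for the other types. All 8 H3 genes were at most 1.31 FPKM in young replicates 2 and 3, where they summed to 1.21 and 1.92 FPKM, while young replicate 1 had 518 FPKM. Old libraries had 213, 197 and 829 FPKM, so the young range enclosed the values of old replicates 1 and 2. In the same young replicates 2 and 3 the H4 sum was 427 and 448 FPKM and the H1 sum 1269 and 2072 FPKM. Since 1 fragment in a gene of 500 bases was worth about 0.0791 and 0.0888 FPKM in these libraries, most of their H3 values rest on few fragments. The log2 ratio of the old to the young mean of the H3 sum was 1.25 and was 8.05 without young replicate 1.

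Each library with H3 transcripts had its own leading copy. Hist1h3b was at 248, 0.174 and 0.196 FPKM in young and 0, 21.8 and 222 FPKM in old libraries. Hist1h3d was at 201, 0 and 0.196 FPKM against 2.46, 0.157 and 276 FPKM. Both were high in young replicate 1 and old replicate 3 and were under 25 FPKM in the other 4 libraries. Hist1h3e was at 49.7, 0.0947 and 0.214 FPKM against 68.7, 88.7 and 104 FPKM. Hist1h3f was at 0.235, 0.113 and 0 FPKM against 118, 54.0 and 47.6 FPKM, and Hist1h3a was at 19.0, 7.34 and 86.9 FPKM in old libraries and at 0 in each young library. These 3 genes are the H3 members whose groups did not overlap. Hist1h3c was at 18.8, 0.830 and 1.31 FPKM against 5.00, 23.2 and 90.4 FPKM, while Hist1h3g and Hist2h3c2, at 0 in every young library, reached 2.14 and 1.12 FPKM in old ones.

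The H3 copies are close enough in sequence for the assignment of fragments to matter. Hist1h3b, Hist1h3c, Hist1h3d, Hist1h3e, Hist1h3f and Hist2h3c2 encode 1 protein, and Hist1h3a and Hist1h3g another that differs from it at 1 residue. Coding sequences of the 8 genes are 93.6% to 98.8% identical, with unbroken shared runs of 89 to 302 bases per pair. Hist1h3e and Hist1h3f differ at 5 of 408 coding bases and, as printed above, share their stem-loop window. The 6 genes of the first protein summed to 518, 1.21 and 1.92 FPKM in young and 194, 188 and 742 FPKM in old libraries, which overlapped. Hist1h3a and Hist1h3g together were at 19.0, 9.48 and 87.6 FPKM in old libraries and at 0 in each young library. Near-absence from young replicate 1 thus held for Hist1h3f and Hist1h3a and not for the H3 protein encoded by Hist1h3f, which other copies supplied there.

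**Figure D3:**
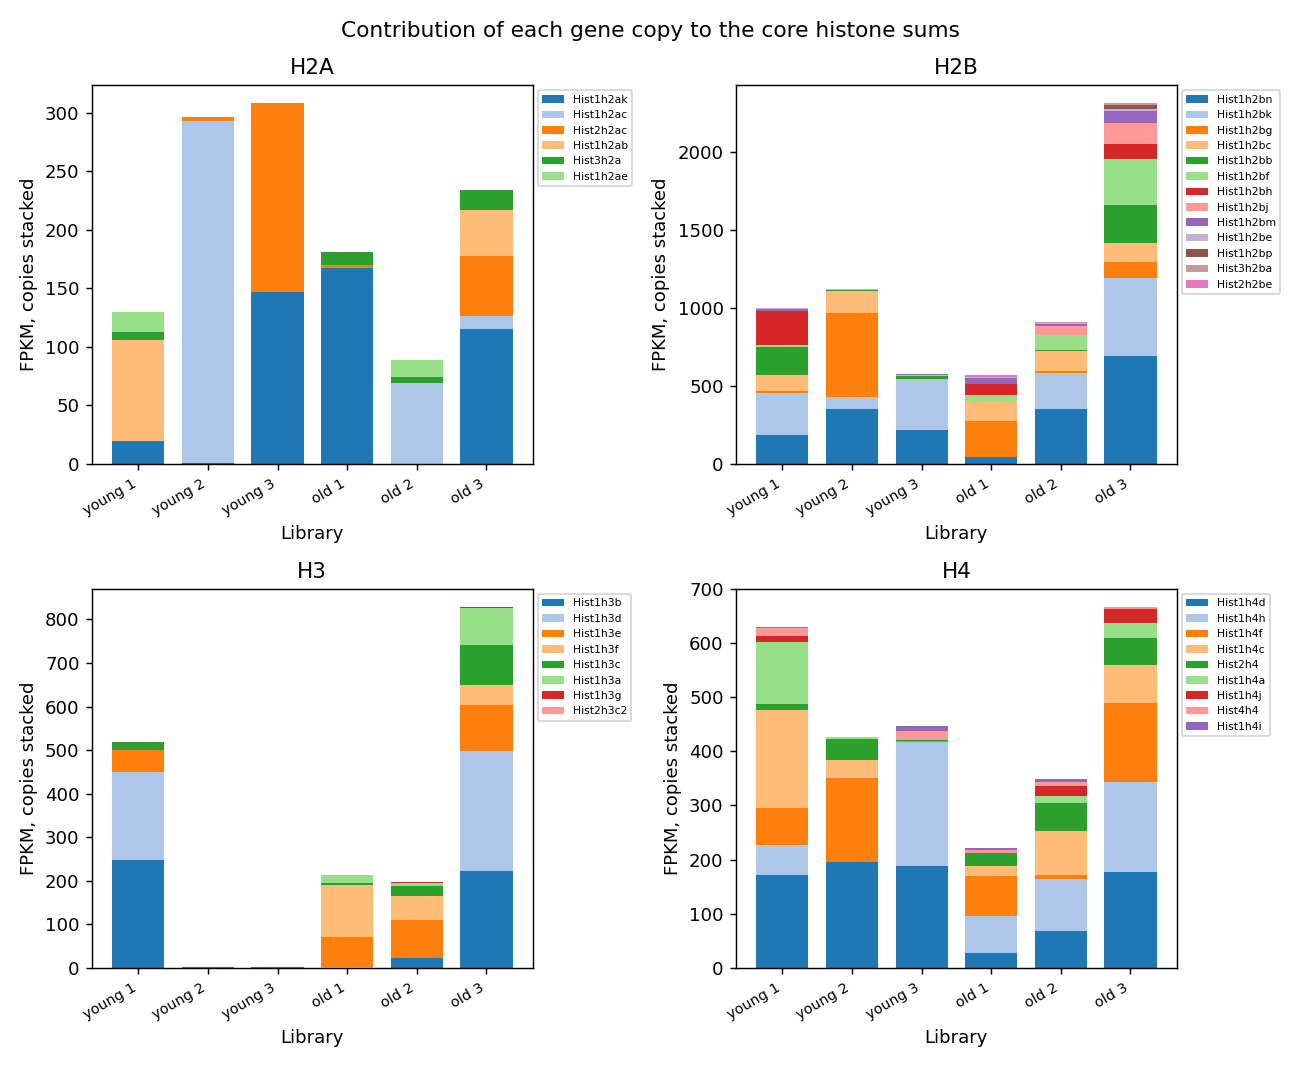
FPKM of each gene copy, stacked, for H2A, H2B, H3 and H4 in each library (bars start at 0). Colours give the copies within a panel, and the largest segment belongs to different copies in different libraries, for H3 Hist1h3b in young replicate 1, Hist1h3f in old replicate 1, Hist1h3e in old replicate 2 and Hist1h3d in old replicate 3.

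H4 copies changed between libraries more than the H4 sum did. Its 9 genes encode 1 protein with coding sequences 85.4% to 97.4% identical, and they summed to 631, 427 and 448 FPKM in young and 221, 349 and 667 FPKM in old libraries. Hist1h4d was the most abundant member and was even in young libraries, at 171, 195 and 188 FPKM, against 27.2, 68.6 and 177 FPKM in old ones. Its log2 change was -1.40 ± 0.56 (SE) with a limma adjusted p = 0.831, and old replicate 3 lay within the young range. The highest old value of Hist1h4h was 166 FPKM and its lowest young value 0.170 FPKM in young replicate 2, between 56.5 FPKM in young replicate 1 and 230 FPKM in young replicate 3. In old replicates 1 and 2 it was at 69.3 and 95.1 FPKM. Hist1h4f was at 68.5, 154 and 0.186 FPKM in young and 73.5, 8.15 and 145 FPKM in old libraries, and Hist1h4c was at 181, 33.8 and 0 FPKM against 18.7, 80.6 and 70.4 FPKM. In young replicate 3, where Hist1h4f and Hist1h4c were near 0, Hist1h4h made up 51.3% of the H4 sum. It also led in old replicate 2, where Hist1h4c was at 80.6 FPKM. Hist2h4, Hist1h4a, Hist1h4j, Hist4h4 and Hist1h4i were at most 115 FPKM.

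The change of copies between libraries was measured as genes at 10 FPKM or more in 1 library and below 1 FPKM in another of the same group. This held for 24 of the 37 members that reached 10 FPKM (64.9%), for 2180 of the 8103 genes of the table that did so (26.9%) and for 14 of 26 such cell division genes (53.8%). It held for 17 members among young and 15 among old libraries, and for 0 of the 6 H1 genes. Both values were chosen after seeing the data, and with 20 and 0.5 FPKM in place of 10 and 1 FPKM 18 members met the rule. The median within-group SD on the log2(FPKM + 1) scale was 2.74 over the 30 members with a mean of at least 10 FPKM and 0.68 over all 5146 such genes. Of the 39 members with a mean of at least 1 FPKM, 36 lay above the median SD of genes of like mean and 25 above their 90th percentile. The SD of the summed type was 0.61 for H4, 0.71 for H2A and 0.81 for H2B, each below the median SD of its own genes of 2.32, 3.40 and 1.65. A sum over several genes can have a lower SD than its genes even where these vary independently. Whether copies replaced one another was not tested. For H3 the SD of the sum, 3.24, was above the median of 1.57 of its genes. The H3 copies were low together in young replicates 2 and 3. That median also includes genes at 0 in most libraries, Hist2h3c2 with an SD of 0.44 and Hist1h3g with 0.59. Young replicate 3 had the most members at 0, 18, and the fewest genes of any kind above 0, 8934. Young replicate 2 and old replicate 1 had 11 members at 0 each, with 9974 and 11310 genes above 0, and the part of detection in the spread was not tested.

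**Figure D4:**
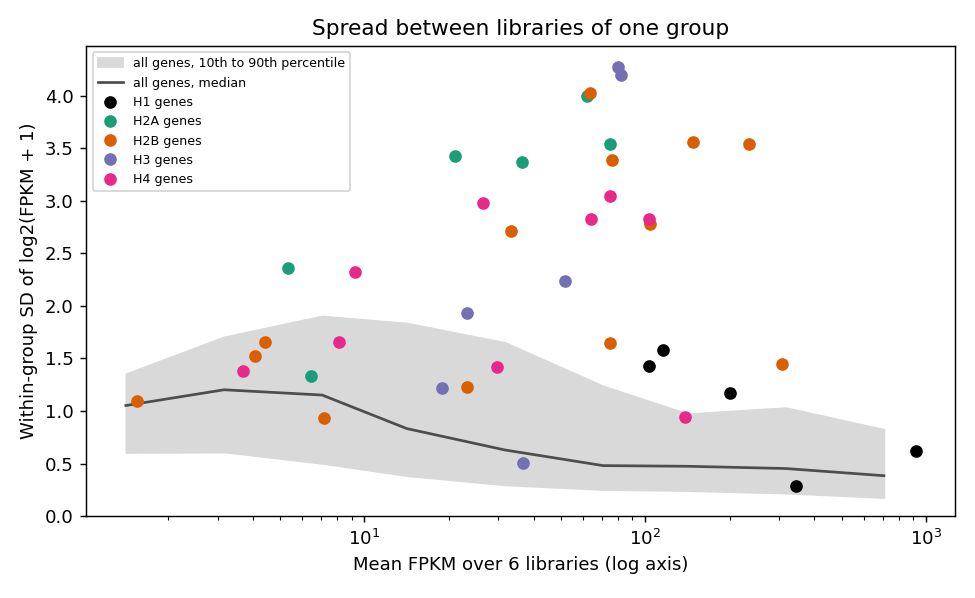
Within-group SD of log2(FPKM + 1) against mean FPKM (log axis) for the 39 histone genes with a mean of at least 1 FPKM, coloured by type, over the median (line) and the 10th to 90th percentile (band) of all genes of like mean. Of the 39 points, 25 lie above the band, and Hist1h1c and Hist1h3f are the histone genes with the lowest SD above 20 FPKM.

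Neighbouring genes did not always share their state. Some histone genes lie head to head, so that 1 stretch of DNA between the starts serves both. Hist1h2ak and Hist1h2bn start 295 bases apart on opposite strands of chromosome 13, and both were at 10 FPKM or more in 4 libraries while 1 of the pair was in the other 2. Those libraries were young replicate 2 and old replicate 2, where Hist1h2bn was at 349 and 355 FPKM and Hist1h2ak at 1.07 and 0.241 FPKM. Hist1h2ac and Hist1h2bc start 250 bases apart and were both at 10 FPKM or more in 3 libraries. In young replicate 1 and old replicate 1 Hist1h2bc was at 103 and 129 FPKM and Hist1h2ac was listed at 0. Hist1h2bh and Hist1h3f start 659 bases apart, and in young replicate 1 Hist1h2bh was at 217 FPKM and Hist1h3f at 0.235 FPKM. Assignment of fragments among near-identical copies bears on each of these values.

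Across the fit of all genes, limma called 0 of 10687 genes (0%) and 0 of 39 histone genes at an adjusted p under 0.05, and 3 members were too low to be tested. At an unadjusted limma p under 0.05, 7 members were higher and 1 lower in old libraries, against 498 and 134 of all genes tested, or 4.66% and 1.25%. The 7 were Hist1h3f, Hist1h3a, Hist1h2bf, Hist1h3e, Hist1h2bj, Hist1h2bm and Hist3h2a, and the 1 was Hist1h4d. Old values lay above all young values for 4 members (10.3%), near the 8.78% of all genes, and below them for 0 members against 3.42% of genes. A positive log2 change was found in 27 of 39 members and in 61.3% of all genes, with a median of 1.15 over the members and 0.23 over all genes. Without old replicate 3 the unadjusted limma counts were 4 higher and 2 lower of 38 members, against 354 and 119 of 10353 genes. The median was then 0.58 over the members and 0.16 over all genes. The gene group was proposed with this contrast known, so nothing is read from these counts.

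By type, 3 of 5 H1 genes had a negative log2 change, with a median of -0.26, and H2A genes split 3 and 3 with a median of 0.22. H2B genes had 10 positive and 3 negative changes with a median of 1.74, and H4 genes 6 and 3 with a median of 0.99. All 6 H3 genes tested were on the positive side, and their median of 3.43 includes Hist1h3a. Among the 4 members without overlap, Hist1h3f had the largest fitted log2 change and the smallest p, at 5.94 ± 0.68 (SE) and a limma adjusted p = 0.0519. Its young values were at most 0.235 FPKM, so the size of this change depends on the pseudocount. With a pseudocount of 0.1 FPKM the change of Hist1h3f was 8.45 (limma adjusted p = 0.357). For Hist1h3a, listed at 0 in every young library, no fold is given, and its limma adjusted p = 0.532. The log2 change of Hist1h2bf was 4.32 ± 0.95 (SE) with a limma adjusted p = 0.561, and that of Hist1h3e was 4.42 ± 1.24 with a limma adjusted p = 0.680. For the type sums the direction differed from these medians in H1, H2A and H4. Their log2 ratios of old to young means were 0.03 for H1, -0.55 for H2A and -0.28 for H4, against 0.49 for H2B and 1.25 for H3. Without old replicate 3 the ratio was -0.36 for H1, -0.86 for H2A, -0.28 for H2B, 0.24 for H3 and -0.82 for H4. Under median-ratio scaling the H1 ratio was -0.096, so its direction was not stable.

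The libraries ranked by their histone sum in the same order as by their cell division genes. The 30 cell division genes summed to 480, 233 and 391 FPKM in young and 200, 288 and 944 FPKM in old libraries. Old replicate 3 was highest and old replicate 1 lowest for both sums, with young replicates 1 and 3, old replicate 2 and young replicate 2 between them in that order. Without Hist1h1e and Hist1h1c the histone sum was 2770, 2021 and 1781 FPKM in young and 1350, 1825 and 4993 FPKM in old libraries. Young replicates 2 and 3 then changed places, so the full match of order did not hold without these linker genes. The 6 points share their library, its depth and its cell make-up, and no p-value is attached to the match. Mki67, the gene of the proliferation antigen Ki-67, was at 171, 116 and 160 FPKM in young and 90.5, 110 and 280 FPKM in old libraries. Top2a, which untangles DNA in dividing cells, was at 49.1, 15.3 and 35.5 FPKM against 6.75, 13.2 and 88.9 FPKM. Both were highest in old replicate 3 and lowest in old replicate 1. Cks2, a cyclin-dependent kinase subunit, did not follow the histone sum in young libraries, at 0.830, 0 and 0 FPKM, against 10.4, 21.6 and 90.3 FPKM in old ones.

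**Figure D5:**
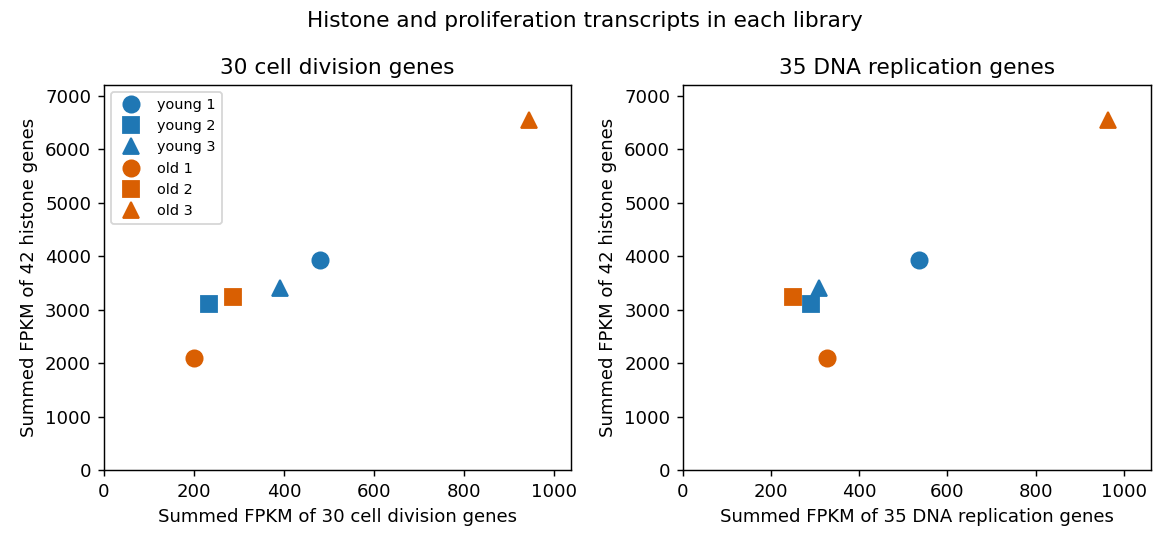
Summed FPKM of the 42 histone genes against summed FPKM of 30 cell division genes (left) and 35 DNA replication genes (right), 1 point per library. Old replicate 3 is highest on all 3 sums, the order of libraries is the same for histones and cell division genes, and it differs for DNA replication genes.

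DNA replication genes followed the histone sum less closely in rank. Their 35 members summed to 535, 291 and 309 FPKM in young and 326, 249 and 964 FPKM in old libraries, so old replicate 3 and young replicate 1 again came first, while old replicate 1, lowest for histones, came next. Pcna, the sliding clamp of DNA polymerase, was at 40.1, 25.3 and 32.6 FPKM against 63.6, 35.5 and 71.7 FPKM. Rrm2, the S-phase subunit of ribonucleotide reductase, was at 34.0, 0 and 30.4 FPKM against 0.194, 9.73 and 38.2 FPKM. Rrm2 was thus near 0 in young replicate 2 and old replicate 1, the libraries with the lowest histone sums. Mcm6, a subunit of the replicative helicase, was at 58.9, 59.9 and 15.4 FPKM against 22.9, 17.5 and 98.6 FPKM. Limma called 0 of the 30 and 0 of the 35 genes between old and young libraries, with medians of 0.53 for both lists against 0.23 for all genes.

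By histone type the match to cell division genes differed. The H4 sum had the same order of libraries apart from old replicate 2 and young replicate 2 changing places. H2A ran another course, highest in young replicates 3 and 2 and lowest in old replicate 2. H3 departed in young replicate 3, which had 391 FPKM of cell division genes, Mki67 at 160 FPKM and 1.92 FPKM of H3. That library had 13 of 30 cell division genes at 1 FPKM or more, against 27 of 30 in old replicate 2, whose sum was lower. Sums in young replicate 3 therefore rested on fewer genes, among them Mki67 and Bub1b at 64.4 FPKM, a spindle checkpoint kinase.

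Genes that make or decay histone messenger RNA varied less than the histone genes themselves. The 21 genes of this list summed to 429, 390 and 286 FPKM in young and 336, 365 and 484 FPKM in old libraries. Slbp, which binds the stem-loop, was at 7.77, 8.29 and 0.290 FPKM against 7.49, 8.49 and 25.8 FPKM. It was lowest in young replicate 3 and highest in old replicate 3, where the fewest and the most histone genes reached 10 FPKM. The same libraries had the fewest and the most genes of any kind above 0, 8934 and 12049. Cpsf3, the nuclease that cuts histone pre-messenger RNA, was at 44.3, 21.6 and 4.58 FPKM against 54.6, 39.6 and 68.9 FPKM, with the same libraries at the ends. Upf1, a helicase needed for histone messenger RNA decay, was at 51.3, 67.9 and 50.3 FPKM against 34.1, 35.3 and 46.1 FPKM and was the member of the list whose old values all lay below the young ones (limma adjusted p = 0.851). Of 19 tested, 11 had a positive and 8 a negative log2 change, and limma called 0.

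As a sum, replication-independent variants did not share the pattern of the clustered genes. The 9 variant genes in the table summed to 281, 357 and 349 FPKM in young and 391, 418 and 391 FPKM in old libraries, with old above young and a ratio of 1.22 between the means. Cenpa, the centromere variant, is a member of this list and of the cell division list. No member by itself was without overlap, and limma called 0 of 9. H3f3b, which encodes the variant H3.3, was at 120, 162 and 89.1 FPKM in young and 221, 229 and 143 FPKM in old libraries. H3f3b was the highest single H3 gene in young replicates 2 and 3, where clustered H3 summed to under 2 FPKM. It was also the highest in old replicates 1 and 2, above Hist1h3f at 118 FPKM and Hist1h3e at 88.7 FPKM. H3f3a, another H3 gene of this list, was at 7.04 and 66.9 FPKM in young replicates 2 and 3. H2afz, the gene of H2A.Z, was at 15.98, 9.77 and 34.1 FPKM against 21.3, 5.86 and 53.8 FPKM, and H1f0, the linker variant of resting cells, at 35.5, 120 and 55.2 FPKM against 75.2, 117 and 28.9 FPKM. H1f0 was lowest in old replicate 3, the library with the highest clustered H1 sum. H2afy, at 62.1, 47.8 and 33.6 FPKM against 11.5, 22.8 and 74.6 FPKM, was highest in old replicate 3 and lowest in old replicate 1. The clustered histone sum was highest and lowest in the same libraries.

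The 23 histone chaperone genes, whose proteins escort histones to DNA, summed to 895, 724 and 680 FPKM in young and 686, 692 and 1264 FPKM in old libraries. Old replicate 3 and young replicate 1 led, as they did for the histone sum. Npm1, a nucleolar chaperone also tied to ribosome assembly, was at 141, 158 and 49.0 FPKM against 148, 116 and 349 FPKM. Ssrp1 and Supt16, the subunits of the FACT complex, ranged from 69.0 to 145 FPKM and from 75.7 to 153 FPKM. Limma called 0 of 23. The log2 change was positive for 12 of them, and the list median of 0.025 lay below that of all genes.

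Markers of other marrow cells moved with the histone sum in part. In old replicate 3 the 9 neutrophil and promyelocyte markers summed to 935 FPKM, with Mpo, a promyelocyte granule gene, at 264 FPKM against 6.98 to 31.6 FPKM in the other 5 libraries. The same list was higher in old replicate 2, at 1248 FPKM, whose histone sum was not raised, and was 259 to 562 FPKM in the other 4. The 5 monocyte markers summed to 83.0 to 220 FPKM in young libraries and to 185, 278 and 635 FPKM in old ones. The 7 erythroid markers, genes of a lineage that divides in marrow, summed to 119, 22.2 and 103 FPKM in young and 42.4, 25.5 and 277 FPKM in old libraries. Old replicate 3, young replicate 1 and young replicate 3 were thus the highest for erythroid markers as for histones. All 7 were above 1 FPKM in young replicate 1 and old replicate 3, while Klf1 was listed at 0 in old replicate 2 and Epor in young replicates 2 and 3 and old replicate 1.

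The 8 early B cell markers summed to 180, 161 and 209 FPKM in young and 37.0, 72.9 and 107 FPKM in old libraries, with old below young. Most of the young sum was Dntt, at 163, 121 and 181 FPKM, while Vpreb3, another B lineage gene, was at 4.53, 23.4 and 6.83 FPKM against 15.8, 64.3 and 26.1 FPKM in old ones, with overlap. Its log2 change was 1.60 ± 0.71 (SE) with a limma adjusted p = 0.839, opposite in sign to that of the sum. Igll1 was listed at 0 in every young library and Vpreb1 at 0 in 5 of the 6 libraries. The sum of the 5 mature B cell markers ranged from 17.1 to 48.8 FPKM and that of the 4 eosinophil and basophil markers from 890.1 to 1373 FPKM, the latter mostly Prg2. Of these 4, Mcpt8 was at 265 FPKM and Cpa3 at 54.7 FPKM in old replicate 3, where Prg2 was at 1052 FPKM. In the other libraries Mcpt8 was at most 27.6 FPKM and Cpa3 at most 1.78 FPKM. The 5 T and NK cell markers summed to at most 6.99 FPKM in 5 libraries and to 29.7 FPKM in old replicate 3. The 4 megakaryocyte markers summed to at most 12.2 FPKM in the same 5 libraries and to 46.0 FPKM in old replicate 3. Pf4 was listed at 0 outside old replicate 3, and Cd3e in all 3 young libraries and old replicate 1. The part of these other cells in the histone levels was not tested.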

How the data were processed

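Bone marrow plasma cells of 3 young and 3 old mouse samples were sequenced. The authors deposited FPKM values per gene, 1 table for all 6 libraries. Per the submitters' processing notes, the tools were STAR, bcl2fastq 2.17 and DESeq2, with no role stated for any, and the build was mm10, also given as GRCm38. The counter, the annotation release, the use of strand and the treatment of fragments that match several copies are not given in the sources used here, so near-identical histone copies may be split or merged.

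The members and all gene lists were chosen with earlier results of these data known. Members were matched by symbol, copies were grouped by translated coding sequence of GENCODE M21 (GRCm38), and FPKM were summed by histone type and by identical protein. All 42 members matched RefSeq. Stem-loops were read from the M21 transcripts and promoters from RefSeq, with Biopython 1.88.

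Old and young libraries were compared by limma 3.58.1 in its trend mode (R 4.3.3). The input was log2(FPKM + 1) of the 10687 genes with a mean of at least 1 FPKM. Tests were two-sided, with Benjamini-Hochberg adjustment over all these genes and a threshold of 0.05. A log2 change understates the change of low genes. The fit was tested on simulated data. Tables were made with pandas 2.3.3, numpy 2.4.6 and scipy 1.17.1 under Python 3.11.15. Approximate depth came from the steps of low FPKM values, and covers counting error only, since amplified reads are not independent molecules.

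Values per library are given for the 16 members of highest mean, the highest member of each type and every member without overlap between groups. From each other list the 4 genes of highest mean and Mki67, Top2a, Cks2, Pcna, Rrm2, Slbp, H2afz and H3f3b were eligible. Markers listed at 0 and H3f3a were named after their values were seen. Members outside the rule named with values (Hist1h2ab, Hist1h2ac, Hist2h2ac, Hist1h2bh, Hist1h3c, Hist1h4c and those given by their maximum or range) were named for completeness.

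Alternatives were a pseudocount of 0.1 FPKM, no filter or a mean of at least 5 FPKM, median-ratio and quantile scaling, a replicate block, type sums without their highest member, and each library left out.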

Additional observations from a re-analysis of the deposited data

How the results depend on the processing

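With quantile normalization limma called 1 gene, which was the 1 histone gene Hist1h3f (adjusted p = 0.0470). Leaving out single libraries, limma called 0 to 7 genes, of which 0 to 1 were histone genes. The histone gene was Hist1h3e without young replicate 1 (adjusted p = 0.0244) and Hist1h3f without young replicate 3 (adjusted p = 0.0213), and the cause was not tested. Over the alternatives, limma adjusted p lay between 0.0213 and 0.969 for Hist1h3f and between 0.0244 and 0.976 for Hist1h3e. Left-out libraries moved the log2 ratio of old to young sums from -0.39 to 0.49 for all histones, -0.36 to 0.33 for H1, -0.86 to -0.24 for H2A, -0.28 to 0.84 for H2B, 0.24 to 8.05 for H3 and -0.82 to 0.018 for H4. They moved the median change of the members from 0.45 to 1.84 and the number of members on in 1 library and off in another from 19 to 23. Without Hist1h2ak, its highest member, the H2A ratio was -1.36, and without Hist1h4d the H4 ratio was 0.020. Replicate numbers did not pair the samples (r of -0.034, 0.020 and -0.004 between same-numbered libraries). With the replicate number as a block limma called 0 genes and the H3 ratio was 4.94, since 2 of the 3 differences are then taken against young values near 0. Scaling moved the median change of all genes from 0.23 to 0.13 (median ratio) or 0.013 (quantile). In the same order, genes with an unadjusted p under 0.05 split 498 higher to 134 lower, 431 to 169 and 338 to 226. Of the 20 genes named by the rule, 12 changed sign in 21 of 240 values, each with a library left out. Values near that of 1 fragment, such as most H3 values of young replicates 2 and 3, are limited by depth.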
